A study of Drosophila melanogaster with 4 samples.

Results

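The odorant-binding protein genes and the 3 families of chemosensory receptor genes of Drosophila melanogaster were followed through a comparison of RNA bound by the poly(A)-binding protein (PABP) with the RNA of the whole fly. Members were all genes whose symbol opens with Obp, Or, Gr or Ir followed by a digit, which gave 237 of the 17806 named genes: 51 Obp, 60 Or, 60 Gr and 66 Ir genes. This choice uses names only. It leaves out Orco and lush, which belong to the Or and Obp families under other names and are given with the other chemosensory genes.

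Odorant-binding proteins are small soluble proteins that support cells of the sensilla secrete into the fluid around the sensory dendrites, and some are made in other tissues, the male accessory gland among them. Or proteins are odour receptors that need the shared subunit Orco, Gr proteins sense sugars, bitter compounds and carbon dioxide, and Ir proteins are derived from ionotropic glutamate receptors and sense acids, amines, salt, temperature and humidity. A few Gr genes are also known to be active in the hormone-secreting cells of the fly gut.

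The study holds 4 libraries from adult whole animals, each from 200 flies, 100 male and 100 female. In the 2 PABP IP libraries the powdered flies had been irradiated with ultraviolet light and PABP had been recovered with its RNA on FLAG beads; the labels assign them to intestinal progenitor cells. The 2 input libraries hold total RNA of the extract and are assigned to all cells. The labels name no strain, genotype, driver or fly age for either group, and leave unsaid whether the replicates are separate fly collections; p-values here reflect the spread of these libraries alone, which may be technical. No control precipitation was analysed here, so a fold change can come from expression in progenitors, from PABP binding or from RNA held by the beads, and these cannot be told apart. Total counts were between 8987420 and 10761349 in the IP and between 2464629 and 3346231 in the input. Levels are in the usual CPM unit, with library sizes scaled by the trimmed mean of M values (TMM). All 7 progenitor markers were higher in the IP, beside 37.1% of all genes tested. Their summed level was 9752 to 10643 CPM in the IP against 110 to 111 CPM in the input.

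Most of the chemosensory genes left few or no reads. Of the 237 members, 44 had a sum of at least 20 counts over the 4 libraries, 97 had a sum of 1 to 19 and 96 had 0 counts in every library. Odorant-binding protein genes were detected far more often than the receptors: 27 of 51 Obp genes reached the sum of 20, against 2 of 60 Or, 7 of 60 Gr and 8 of 66 Ir genes. Of all 17806 named genes, 10281 reached it, so the Obp genes were not detected more often than genes at large. The members nearest to this threshold were Gr43a with 21 counts and Gr59e with 22 just inside, and Gr66a with 18 and Obp84a with 17 just outside. A sum of 20 is reached more easily by a gene that is high in the deeper IP libraries.

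**Figure D1:**
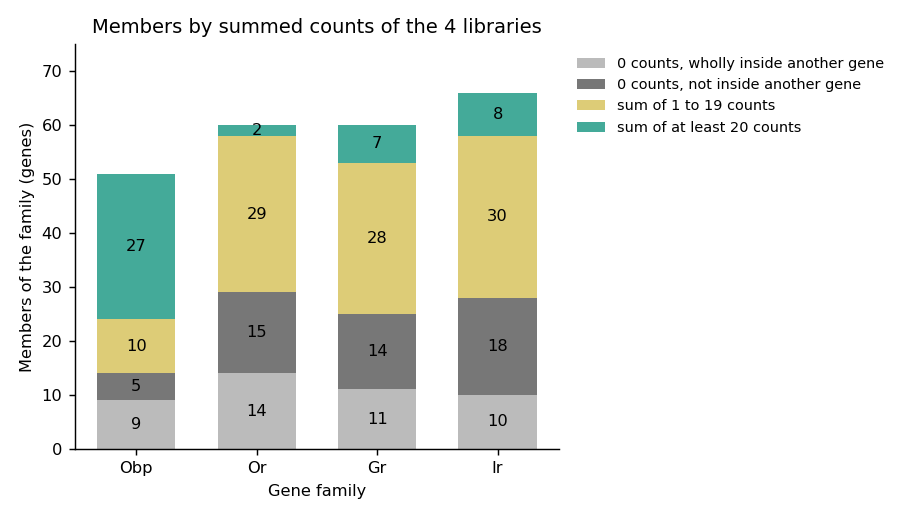
Number of members (y axis, genes) in each family (x axis), split by their summed counts over the 4 libraries and, for members at 0, by whether the gene lies wholly inside another gene. At least 20 counts were reached by 27 Obp, 2 Or, 7 Gr and 8 Ir genes, and 44 members at 0 lie inside another gene.

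Many of the zeros went with gene position. By the RefSeq table (assembly Release 6 plus ISO1 MT), 44 members lie wholly inside the span of another gene, and all 44 had 0 counts in all 4 libraries. Of the 193 members that do not lie inside another gene, 52 were at 0 and 141 had at least 1 count. The nested members include Obp59a, an odorant-binding protein gene of humidity sensing that lies inside CG30259, Or85a inside Poxm, Gr39a, a bitter receptor gene, inside Mondo, and the sugar receptor genes Gr64b and Gr64c, which share a span. Absence of RNA cannot be read from these 44 genes. Another 28 members overlap a gene in part, and their counts are uncertain as well, since the sources used here do not give the strand setting or how reads in overlaps were assigned.

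Summed over all 51 members, Obp transcripts were lower in the IP. Their share of library counts was 0.0352% and 0.0292% in PABP IP 1 and 2 but 0.127% and 0.131% in input 1 and 2. On the TMM scale the family summed to 432 ± 43.9 CPM (IP) and 963 ± 6.59 CPM (input; SD, n = 2 each), a ratio of 0.446 (exact 95% counting interval 0.431 to 0.461). The groups did not overlap. In the input, which is bulk RNA of whole flies, cell number and RNA per cell cannot be told apart. For the ratio of IP to input, the limits given above hold: progenitor expression, PABP binding and RNA held by the beads cannot be told apart. An exact permutation test of 2 against 2 libraries cannot go below p = 0.333, so no test is given for sums. Intervals here treat each read as an independent molecule and leave out the spread between libraries. They are too narrow where reads are PCR copies.

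The receptor sums lay on the other side. The Gr family summed to 34.1 ± 0.847 CPM (IP) and 8.01 ± 0.536 CPM (input; SD, n = 2 each), and the Or family to 16.4 ± 0.244 and 6.49 ± 0.749 CPM. The Ir sum was also higher on this scale, 70.5 ± 6.69 CPM for the IP against 41.6 ± 8.54 CPM, but as a share of library counts it overlapped between groups, at 0.005% and 0.00547% in PABP IP 1 and 2 and 0.00633% and 0.00481% in input 1 and 2. The direction of the Ir sum therefore depends on the scaling. The Or and Gr sums were higher in the IP under both scalings, by a log2 ratio of 0.49 and 1.24 in shares of library counts.

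**Figure D2:**
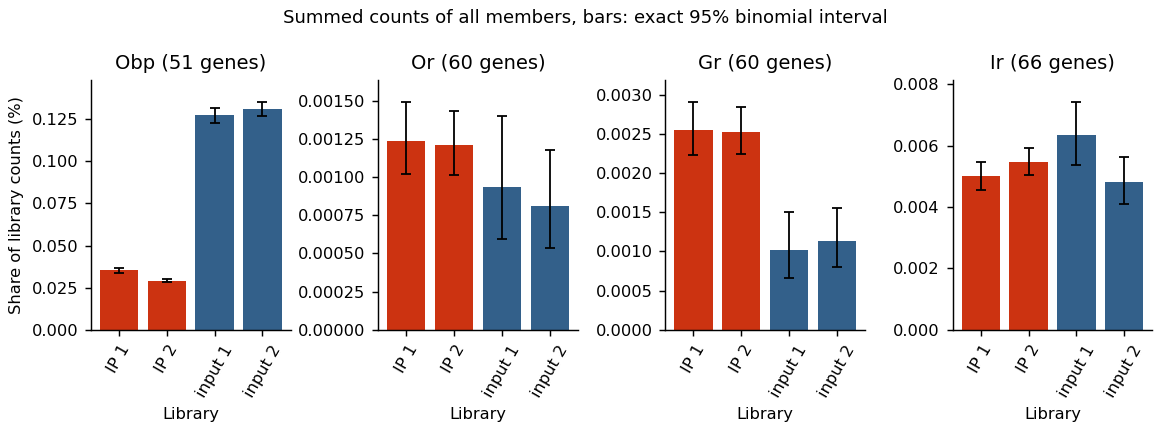
Share of library counts in percent (y axis, a separate scale per panel) taken by all members of each family in each library (x axis), with exact 95% binomial intervals. Obp shares were 0.0352% and 0.0292% in the IP and 0.127% and 0.131% in the input; Gr shares were higher in both IP libraries than in both input libraries, and Ir shares overlap.

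The higher receptor sums rested on few genes. In the IP, Or43b alone gave 51.9% of all Or counts, Gr59a gave 40.1% of all Gr counts and Ir40a 23.1% of all Ir counts. Without Or43b the log2 ratio of Or shares was -0.00563, and without Gr59a that of Gr shares was 0.52. On the TMM scale the same sums stayed higher in the IP, with ratios of 1.82 (exact 95% counting interval 1.23 to 2.75) and 2.58 (1.95 to 3.44). The 169 receptor genes with a sum under 20 together held 99 and 118 counts in the IP and 49 and 55 in the input, a TMM-scaled ratio of 1.11 (0.876 to 1.42) and a ratio of 0.605 by library size. At the total count of the shallowest library, a matching that leaves out the TMM factors, the expected number of receptor genes with a read was 36.8 and 36.0 for the IP libraries and 54 and 42.6 for the inputs. Whether low receptors were fewer in the IP therefore depends on the scaling.

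Single members were compared with edgeR's quasi-likelihood test over all 9989 genes that passed its filter on low counts, with Benjamini-Hochberg adjusted p below 0.05 as the threshold. Of the 237 members, 38 passed the filter: 27 Obp, 1 Or, 4 Gr and 6 Ir genes. Among them 21 were called lower in the IP and 9 higher, and 8 were not called. Of all genes tested, 38.8% were called lower and 37.1% higher, 75.9% in either direction, and the median log2 fold change was -0.10. All 21 lower calls were Obp genes, and 7 of the 9 higher calls were receptor genes. A receptor gene with almost no input reads could pass the filter only through the IP, so the receptor calls say nothing about the receptors that did not pass.

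**Figure D3:**
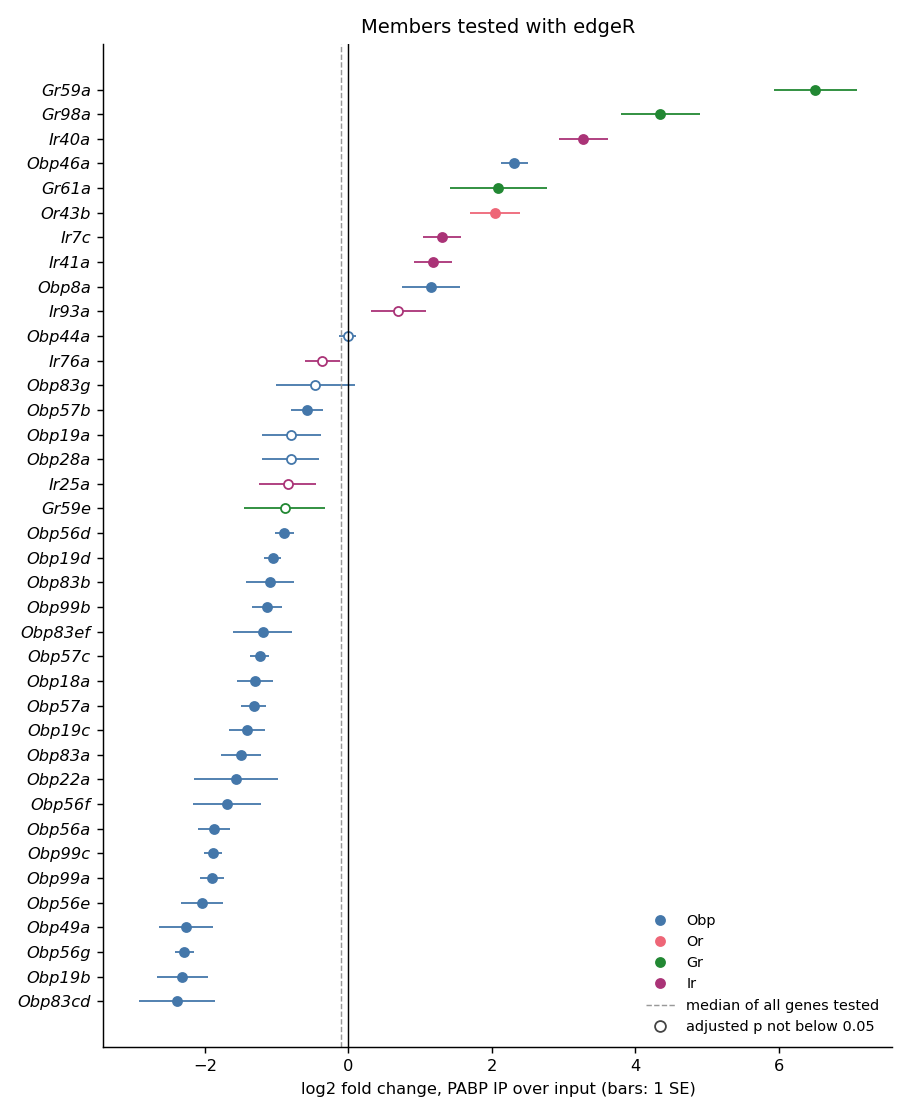
Log2 fold change of PABP IP over input (x axis, bars 1 SE) for the 38 members tested, one per line (y axis), coloured by family, with open points where the adjusted p is not below 0.05. The 21 lower calls are all Obp genes, and Gr59a, Gr98a and Ir40a lie farthest to the right.

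Of the 27 Obp genes tested, 21 were lower, Obp46a and Obp8a were higher and 4 were not called, with a median log2 fold change of -1.30. In 24 of the 27 both IP libraries lay below both input libraries and in 2 above them, which was so for 46.3% and 42.3% of all genes tested. Obp99c had the highest input level of the family. Its counts were 611 and 510 in PABP IP 1 and 2 and 895 and 1342 in input 1 and 2, or 89.5, 65.1, 273 and 296 CPM. The IP was lower throughout, at 77.3 ± 17.2 against 285 ± 16.3 CPM (SD, n = 2 each). The log2 fold change was -1.89 ± 0.13 SE, with an adjusted p of 5.2e-10. Its gene overlaps Gycalpha99B in part, which was lower as well (-1.76).

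Obp56g, whose product has been found in seminal fluid, was next. Its levels were 24.2 and 23.5 CPM in PABP IP 1 and 2 and 129 and 105 CPM in input 1 and 2. The IP was lower in both libraries (log2 -2.29 ± 0.13 SE, adjusted p = 4.6e-11). Per kilobase of the deposited gene length, which spans introns, Obp56g was the most abundant member of the input, at 209 CPM per kb, above 97.8% of the genes tested. In the IP it had 42.6 CPM per kb, above 82.6% of them. Obp19d, a gene of taste and smell sensilla, was at 81.2 and 89.4 CPM in input 1 and 2 and at 43.3 and 39.3 CPM in PABP IP 1 and 2 (log2 -1.05 ± 0.12 SE, adjusted p = 4.13e-07).

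Several Obp genes lie in tandem clusters, whose sums were lower in the IP, though not each gene in them was. The 9 Obp56 genes summed to 71.0 ± 5.23 CPM (IP) and 221 ± 12.2 CPM (input; SD, n = 2 each). Within this cluster Obp56e changed by -2.04, Obp56a by -1.87, Obp56f by -1.70 and Obp56d by -0.89 on the log2 scale, while Obp56c, too low to test, had 8 and 3 counts in the IP and 1 and 0 in the input. The 5 Obp57 genes summed to 51.4 ± 5.83 and 115 ± 7.92 CPM, with Obp57a at -1.32, Obp57c at -1.24 and Obp57b at -0.57. The 4 Obp99 genes summed to 105 ± 24.4 and 364 ± 13.8 CPM, with Obp99a at -1.90 and Obp99b at -1.13. The 4 Obp19 genes ran from -0.79 for Obp19a, which was not called (adjusted p = 0.0932), to -2.31 for Obp19b. Obp19a was called lower by library size (-1.64), with upper-quartile factors (-1.40) and with the authors' size factors (-1.29), and in the authors' deposited table (adjusted p = 0.0336).

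Some Obp genes have known roles in smell or taste. The paired antennal genes Obp83a and Obp83b, which shape how odour responses end, changed by -1.50 ± 0.28 and -1.09 ± 0.33 SE. Obp83cd had the lowest fold change of the tested members at -2.39 ± 0.52 SE, from 5 and 3 counts in the IP and 11 and 12 in the input; it overlaps Obp83ef in part. Obp49a, which is needed for bitter compounds to suppress the response to sugar, was at 13 and 11 counts in the IP and 19 and 44 in the input (log2 -2.27 ± 0.38 SE, adjusted p = 3.7e-05). Obp28a, an abundant antennal gene, had 18 and 13 counts in the IP and 12 and 17 in the input and did not pass (log2 -0.80 ± 0.40 SE, adjusted p = 0.0775), and the authors' deposited table calls it lower (log2 -1.30, adjusted p = 0.0193). It was also called lower by library size (-1.65), with upper-quartile factors (-1.41) and with the authors' size factors (-1.30). Obp84a, too low to test, had 6 and 8 counts in the IP and 2 and 1 in the input.

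**Figure D4:**
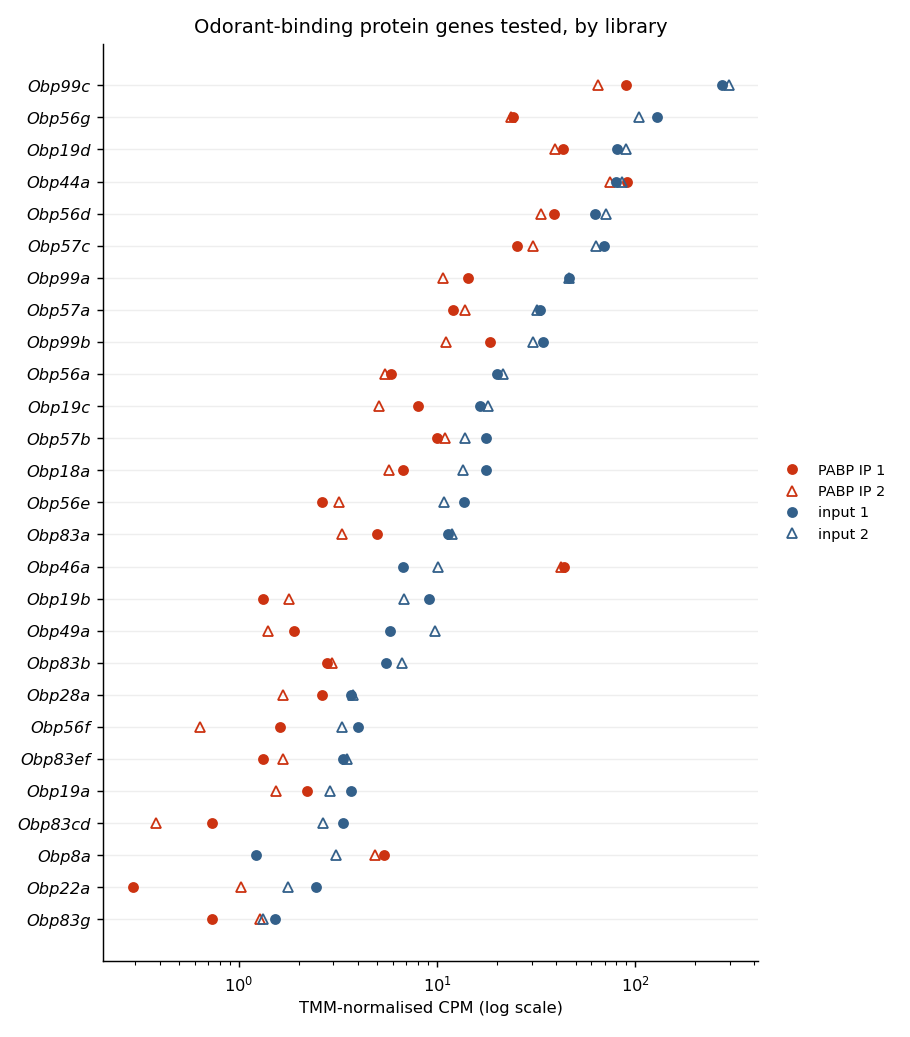
TMM-normalised CPM (x axis, log scale) of the 27 odorant-binding protein genes tested (y axis, ordered by mean input level) in each of the 4 libraries. Both IP libraries lie left of both input libraries for 24 genes; Obp46a and Obp8a lie on the other side and Obp44a overlaps.

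The seminal fluid Obp genes did not all move one way. Obp56g, Obp56e, Obp56f and Obp22a were lower, and Obp8a was higher, with 37 and 38 counts in the IP and 4 and 14 in the input (log2 1.15 ± 0.40 SE, adjusted p = 0.0157). The call of Obp8a was lost without input 1 (0.72), by library size (0.31), with upper-quartile factors (0.55) or the authors' size factors (0.66), and in DESeq2 (1.28), and its value without input 2 was 2.04. For Obp22a, with 2 and 8 counts in the IP and 8 in each input, the fall of 1.56 was not called without PABP IP 1 (-0.97), input 1 (-1.36) or input 2 (-1.83), and it was -2.72 without PABP IP 2. It was not called with no filter either (-1.51). For Obp56f the call was lost without PABP IP 2 (-1.16), and its value without PABP IP 1 was -2.43. Obp56i had 2 and 4 counts in the IP and 1 and 4 in the input, and Obp51a lies inside hbs and had 0. Of 10 accessory gland markers all 6 tested were lower, beside 38.8% of all genes tested. The 10 markers summed to 61.2 to 64.6 CPM in the IP and 218 to 250 CPM in the input, while Acp36DE, Acp62F, Acp63F and Acp95EF were at 0. Whether the genes at 0 lie inside another gene was not checked, so absence of RNA cannot be read from them. The part of the 10 markers in the result was not tested.

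Calls of 3 other Obp genes depended on single libraries and were lost in DESeq2 as well, as were those of Obp56f (-1.64) and Obp22a (-1.57). Obp83b was not called without input 2 (-0.95) or in DESeq2 (-1.01). Obp57b was not called without PABP IP 1 (-0.48) or input 1 (-0.41), and was -0.51 in DESeq2. Obp83ef was not called without PABP IP 1 (-1.03), input 1 (-1.23) or input 2 (-1.17), and was -1.13 in DESeq2.

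Obp46a stood apart from its family. It had 300 and 332 counts in PABP IP 1 and 2 and 22 and 46 in input 1 and 2, or 43.9, 42.4, 6.71 and 10.2 CPM. The IP was 4.97-fold higher (log2 2.31 ± 0.19 SE, adjusted p = 6.38e-09), and the groups were far apart. Per kilobase its level was above 51.1% of tested genes in the input and above 85.7% in the IP. It overlaps no other gene, and its neighbours CG12909 and Ndg were lower (-0.42 and -1.50). Obp44a had the highest IP level of the family but did not differ beyond the spread, at 91.2 and 74.3 CPM in PABP IP 1 and 2 and 79.96 and 86.1 CPM in input 1 and 2 (log2 -0.01 ± 0.12 SE, adjusted p = 0.943). With library size alone it was called lower (-0.86), as with upper-quartile factors (-0.62) and the authors' size factors (-0.51). Obp44a overlaps in part with Pabp2, the gene of the nuclear poly(A)-binding protein, which was much higher in the IP (log2 3.996 ± 0.164 SE), and the share of its reads that come from Pabp2 was not tested.

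Among the receptors, 7 of the 11 tested were higher in the IP, beside 37.1% of all genes tested, and 4 were not called. Several of the 7 had almost no input reads and were tested through their IP counts alone: with at least 10 counts required in each input, no Or or Gr gene and 4 Ir genes were tested, 2 of them higher. The gustatory receptor genes showed the largest values. Gr59a had 88 and 113 counts in PABP IP 1 and 2 and 0 and 1 in input 1 and 2, a TMM-scaled ratio of 107 with an exact 95% counting interval of 18.99 to 4249 (adjusted p = 1.57e-08). From almost no reads in the input it came to a level per kilobase above 52.4% of tested genes in the IP. Its fitted log2 fold change of 6.51 was 5.83 without input 1 and 9.35 without input 2, since it rests on 1 input read. Gr59a overlaps no other gene, and its neighbours CG43659 and Gr59b were too low to test.

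Gr98a had 66 and 55 counts in the IP and 2 and 1 in the input, a ratio of 21.5 (7.18 to 106; adjusted p = 1.46e-06), with a log2 value of 5.11 without input 1 and 3.71 without input 2. Gr61a, a sugar receptor gene, had 15 and 18 counts in the IP and 0 and 4 in the input (log2 2.09 ± 0.68 SE, adjusted p = 0.0103). The call of Gr61a was lost without input 1 (1.32), by library size (1.26), with upper-quartile factors (1.5) and in DESeq2 (2.29), and its value was 6.76 without input 2. Gr59e, with 6 and 5 counts in the IP and 4 and 7 in the input, did not pass (-0.89 ± 0.57 SE, adjusted p = 0.17), but was called lower by library size (-1.73), with upper-quartile factors (-1.49) and with the authors' size factors (-1.37). Gr98a and Gr59a were thus high in both IP libraries, while Gr61a turned on 4 input reads.

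The Gr genes below that filter held few counts. Gr8a, part of the receptor for the plant toxin L-canavanine, had 7 and 18 counts in the IP and 1 in each input, a ratio of 6.66 (exact 95% counting interval 1.66 to 58.0); it overlaps CG12121 in part, which was higher too (1.41). The bitter receptor gene Gr89a had 8 and 14 counts against 0 and 1, a ratio of 11.7 (1.89 to 484). Both were called higher where the filter was a sum of at least 20 (adjusted p = 0.01 and 0.0053), a sum they reached mostly through the IP. Gr43a, the fructose receptor gene, which overlaps Dhx15 in part, was not, with 7 and 8 counts in the IP and 4 and 2 in the input (adjusted p = 0.63). For Gr66a, a marker of bitter neurons, the counts were 9 and 6 against 1 and 2. Gr21a and Gr63a, which together sense carbon dioxide, had 1 count in the IP and 2 in the input respectively, and none in the other group. Gr5a, Gr28a, Gr28b, Gr32a, Gr33a, Gr64a and Gr64f had at most 8 counts in a group. That filter tested 10281 genes and called 36.5% higher and 37.4% lower. Its 5 higher calls among 7 Gr genes are no result about the family, since those 5 reached the sum almost only through IP reads.

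**Figure D5:**
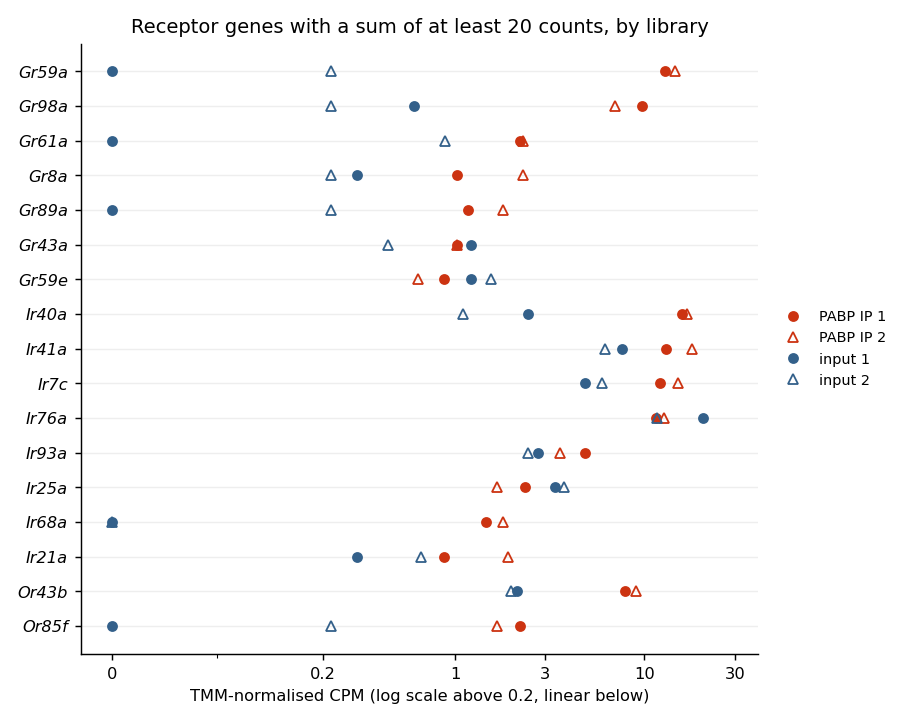
TMM-normalised CPM (x axis, log scale above 0.2 and linear below) of the 17 receptor genes with a sum of at least 20 counts (y axis, by family and mean IP level) in each library. Gr59a, Gr98a and Ir40a lie far higher in both IP libraries, Gr59e and Ir25a lie lower, and Gr43a and Ir76a overlap between groups.

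Of the Ir genes, 3 of 6 tested were higher, beside 37.1% of all genes tested, and 1 of 6 by library size. Ir40a, a receptor gene of dry-air sensing, had 108 and 132 counts in PABP IP 1 and 2 and 8 and 5 in input 1 and 2, or 15.8, 16.9, 2.44 and 1.104 CPM (log2 3.27 ± 0.34 SE, adjusted p = 1.44e-07). The groups were well apart. Its deposited length is 24851 bases, so per kilobase it stayed low, above 11.3% of tested genes in the IP and 0.981% in the input. Ir68a, the receptor gene of moist-air sensing, had 10 and 14 counts in the IP and 0 in both inputs. The ratio was 4.26 if the inputs together are set to a floor of 3 counts, and its exact 95% lower limit was 3.21. Ir68a was too low for the main filter, and it reached a sum of 20 through the IP alone, so its level there is given as a description.

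Ir7c, a receptor gene of salt taste, had 83 and 118 counts in the IP and 16 and 27 in the input (log2 1.31 ± 0.27 SE, adjusted p = 0.000279), and Ir41a, a polyamine receptor gene, 89 and 139 against 25 and 28 (1.18 ± 0.26 SE, adjusted p = 0.000568). Neither was called with library size alone (0.46 and 0.32), nor Ir41a with upper-quartile factors (0.57). Ir41a spans 104437 bases, and its neighbour CG44102 was higher (2.31).

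Among the shared and partner subunits of these receptors, Ir25a and Ir93a could be tested and neither was called. Ir25a, the most widely used co-receptor gene, had 16 and 13 counts in the IP and 11 and 17 in the input (log2 -0.85 ± 0.40 SE, adjusted p = 0.0636), and was called lower by library size (-1.69), with upper-quartile factors (-1.45), with the authors' size factors (-1.34) and in limma-voom (-0.87). Ir76b had 1 and 0 counts against 2 and 3, and Ir8a 0 and 0 against 0 and 2. Ir93a, the partner of the temperature and humidity receptors, had 33 and 28 counts against 9 and 11 and did not pass (0.70 ± 0.38 SE, adjusted p = 0.107), and it turned to -0.15 with library size alone. Ir21a, its partner in cool sensing, had 6 and 15 counts against 1 and 3, a TMM-scaled ratio of 2.80 (exact 95% counting interval 0.943 to 11.2). Ir76a, an amine receptor gene that overlaps CG14102 in part, had the most input counts of the family, 67 and 53, beside 79 and 99 in the IP. It was not called (-0.36 ± 0.25 SE, adjusted p = 0.185), was 0.0427 without input 1, and was called lower without input 2 (-0.77), by library size (-1.22), with upper-quartile factors (-0.98) and with the authors' size factors (-0.86). Ir20a, Ir56d, Ir64a, Ir75a and Ir84a had at most 6 counts in a group, and Ir52a had 0 without lying inside another gene.

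Odour receptor genes were the least detected. Or43b was the only one that passed the filter, with 54 and 71 counts in PABP IP 1 and 2 and 7 and 9 in input 1 and 2 (log2 2.04 ± 0.35 SE, adjusted p = 5.29e-05). It overlaps Cul1 in part, and Cul1 and the neighbour CG12159 were higher as well (0.73 and 2.12). Or85f, a receptor gene for odours of parasitoid wasps, had 15 and 13 counts against 0 and 1, a ratio of 14.9 (exact 95% counting interval 2.47 to 610). The genes Or67d, for the male pheromone cis-vaccenyl acetate, and Or22a, for fruit esters, had 6 and 8 and 5 and 6 counts in PABP IP 1 and 2, and 0 in both inputs. By the same floor their ratios were 2.49 and 1.95, with exact 95% lower limits of 1.77 and 1.34. Or56a, the geosmin receptor gene, had 2 and 3 counts in the IP and 1 and 4 in the input. Or42b and Or19a were at 0 in all 4 libraries without lying inside another gene.

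Other chemosensory genes, in a list of 41 that the symbol rule does not match, went both ways. Of 16 tested, 10 were lower, 5 higher and Phk-3 was not called, beside 38.8% lower and 37.1% higher among all genes tested; their median log2 fold change was -1.57; 12 were at 0 in all libraries, 10 of which lie inside another gene, Snmp1 and Snmp2 among them. Orco, the shared odour receptor subunit, had 7 and 2 counts in the IP and 7 and 9 in the input (log2 -1.70 ± 0.60 SE, adjusted p = 0.0166), and lush, the odorant-binding protein gene for cis-vaccenyl acetate, 7 and 6 against 9 and 11 (-1.51 ± 0.48 SE, adjusted p = 0.00947). The call of Orco was lost without input 1 (-1.67) or input 2 (-1.77), that of lush without PABP IP 2 (-1.31) or input 1 (-1.44), and both in DESeq2. The esterase gene Est-6 was at 85.5 ± 5.77 CPM in the IP against 325 ± 27.6 CPM in the input (log2 -1.92 ± 0.11 SE), the antennal esterase gene Jhedup changed by -2.51, the chemosensory protein gene a10 by -1.99 and Culd by -1.62.

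The genes of this list that rose encode a flippase, transcription factors, a transporter and a channel. ATP8B, a phospholipid flippase needed for the sensitivity of odour receptor neurons, was at 365 ± 3.31 CPM in the IP and 25.9 ± 1.72 CPM in the input (log2 3.81 ± 0.12 SE, adjusted p = 7.89e-14). The POU-domain factor gene acj6, which acts in the choice of odour receptor genes, had 136 and 224 counts in the IP and 10 and 9 in the input (3.31 ± 0.32 SE), and pdm3, of the same class, rose by 1.03. The ammonium transporter gene Amt rose by 2.49 and the pheromone channel gene ppk29 by 2.15. Of these, acj6 (with Pp1-13C), ppk29 (with sei and CG13563) and pdm3 (with several genes) overlap other genes in part, so their counts are uncertain, and the authors' deposited table does not call pdm3 (adjusted p = 0.119).

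Markers of several other cell types moved as follows, and their part in the results was not tested. Of 10 neuronal markers 8 were tested, 4 were lower and Snap25 was higher. The 10 markers summed to 306 to 366 CPM in the IP and 349 to 398 CPM in the input. VAChT was at 0, and whether it lies inside another gene was not checked. The marker elav was too low to test, with 1 and 0 counts in the IP and 1 in each input. Of 5 glial and sensillum support markers 3 were lower and nrv2 higher, at 351 to 358 CPM in the IP and 426 to 465 CPM in the input. All 5 fat body markers tested of 6 were lower, at 1288 to 1663 CPM against 7993 to 8358 CPM. Of 6 hemocyte markers 5 were tested, 4 were lower and srp was higher (log2 0.32), at 192 to 221 CPM against 664 to 779 CPM in sum. Of 10 enteroendocrine markers 2 were higher and 2 lower, at 165 to 183 CPM in the IP and 113 to 116 CPM in the input. Among all genes tested 38.8% were called lower and 37.1% higher. The neuronal, glial, fat body, hemocyte and enteroendocrine counts come from few genes and are no result about those cells.

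The authors' deposited table lists 157 of the 237 members, 32 of them with 0 counts in all 4 libraries, and gives 86 an adjusted p-value. At 0.05 it calls 17 of these 86 lower, all Obp genes, and 5 higher. Among the 11294 genes of the count data with an adjusted p-value there, 38.5% were lower and 21.3% higher. Of the 30 members called here, 19 had the same call there. The authors' base mean was 7.28 for Gr39a, which had 0 counts in all 4 libraries. Their test therefore did not rest on these 4 libraries alone, and the calls here and there are not a like comparison. Obp56g and Gr59a were among those that did not pass in the authors' deposited table, with adjusted p of 0.0923 and 0.557 at log2 fold changes of -2.79 and 6.29. Obp46a, Gr98a, Ir40a, Or43b and Ir68a were the 5 higher calls.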

How the data were processed

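The authors deposited raw read counts for each gene as whole numbers, a length in bases per gene, and a table of their own test. The submitters' processing notes name cutadapt 2.9, STAR 2.7.3a, SAMtools 1.10, Subread 2.0.0, featureCounts and DESeq2. The genome build, strand setting and handling of duplicate reads are not stated in the sources used here. Per the labels' protocols, libraries came from the Ovation SoLo kit. Per the file headers, the authors' table gives log2 fold changes, their standard errors, a test score and raw and adjusted p-values. It also gives a normalized signal, the authors' counts divided by 1 size factor per library; its base mean is not the mean of these 4 columns.

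The main test on the deposited counts was edgeR 4.0.16 (R 4.3.3): filterByExpr at a minimum count of 10, TMM factors, glmQLFit and a two-sided glmQLFTest, with group as the only term over 4 libraries. The SE is the log2 fold change over the square root of F. Ratios of summed counts, scaled by TMM library sizes, carry exact 95% intervals. A row with no gene name, at most 0.000418% of a library, was left out. Deposited lengths of all 237 members equalled RefSeq gene spans, which include introns. Counts may therefore include reads from introns, and levels per kilobase need not be those of mature transcripts. The RefSeq table served for overlaps and neighbours only. Members, gene lists and the rule for named genes were chosen with earlier results of these data known. The rule took, per family, up to 8 members per direction with the lowest p, the 5 highest in each group, receptors and binding proteins with known roles, and up to 4 other chemosensory genes per direction; the remaining tested members, and Gr8a, Or85f, neighbours and markers named singly, were picked after their values were seen. The deviations of same-numbered libraries had a correlation of -0.0897 over 9989 genes. With 2 libraries per group this cannot show whether same-numbered libraries share an extract, so a replicate block was run as an alternative. Replicates differed beyond sampling noise (chi-square over degrees of freedom 8.51 for the IP and 2.99 for the input). The edgeR procedure was also run on simulated data with few changed genes and the same spread for all genes. That setting differs from these data, where 75.9% of genes tested were called, so it does not bear on the scaling. Alternatives used limma 3.58.1 and DESeq2 1.42.0.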

Additional observations from a re-analysis of the deposited data

How the results depend on the processing

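Scaling set the zero point. The median log2 fold change of all genes tested was -0.10 (TMM), -0.02 (RLE factors), -0.71 (upper quartile), -0.95 (library size) and -0.59 (the authors' size factors). Of the 21 lower Obp calls 16 held in all 14 alternatives of scaling, filter, test, block and left-out library, as did Obp46a. Gr59a, Gr98a, Ir40a and Or43b held in each of the 13 that tested them. Lower calls could hardly be lost with upper-quartile factors, library size or the authors' size factors, which moved the median of all genes tested down. The replicate block changed none of the 38 members' calls (3660 genes higher and 3817 lower, against 3708 and 3873). Below, "3 scalings" are upper quartile, library size and the authors' factors, in this order. Genes with under about 10 input reads are limited by depth; the cause of other changes was not tested.

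Members called higher, 9 in all, were 5 by library size, 17 with no filter and 3 with at least 10 counts in each input. For Obp, 2 higher calls became 1 in each of the 3 scalings, with 10 counts in each input, in DESeq2 and at an adjusted p of 0.01, and were 1 to 2 with single libraries left out. The Or call became 5 with no filter, 2 with a sum of at least 20, 0 with 10 counts in each input or without overlapping genes, and 1 to 2 with libraries left out. The 3 Gr calls became 6, 5 and 0 under those 3 filters, and 2 to 4 with libraries left out; the 3 Ir calls became 1 by library size. Lower calls, 0 for Gr and Ir, became 1 and 2 in each of the 3 scalings; for Ir they were 1 in limma-voom and 0 to 1 with libraries left out. Other chemosensory genes, 5 higher and 10 lower, became 2 and 6 with 10 counts in each input, where fewer were tested.

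Median log2 fold changes cover only the members tested, in the main fit 27 Obp, 1 Or (Or43b), 4 Gr and 6 Ir genes. The Or and Gr medians are therefore no values of whole families. Under the 3 scalings the medians were -1.91, -2.16 and -1.80 for Obp, and 1.43, 1.19 and 1.55 for Or. They were 2.63, 2.39 and 2.74 for Gr, and 0.33, 0.0868 and 0.44 for Ir. With no filter they were -1.13, 1.03, 1.08 and 0.65 in the same order of families, and Obp was -1.23 with RLE factors. With a sum of at least 20, Or was 2.86, Gr 2.62 and Ir 1.24; Ir was 0.39 with 10 counts in each input and 1.25 without overlapping genes. With libraries left out the ranges were -1.35 to -1.21 (Obp), 1.92 to 4.25 (Or), 2.65 to 5.47 (Gr) and 0.91 to 1.23 (Ir). The genes behind these medians changed too, with 1 to 2 Or, 2 to 7 Gr and 6 to 8 Ir genes tested. Log2 ratios of summed shares, -2.01, 0.49, 1.24 and -0.09 for Obp, Or, Gr and Ir, were -1.16, 1.34, 2.09 and 0.76 on TMM library sizes, and -1.79, -0.00563, 0.52 and 0.34 without each family's most abundant member; with a sum of at least 20, Or was 1.41 and Gr 2.18.

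Among uncalled genes 3 changed sign. Ir93a was -0.15 by library size. Ir76a ran from -0.77 to 0.0427 with libraries left out. Obp44a was 0.0625 with RLE factors, 0.0556 with no filter and 0.0648 in DESeq2, and ran from -0.14 to 0.12 with libraries left out.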
